A study of Mus musculus with 4 samples.

Results

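Forkhead (Fox) genes encode transcription factors that share a winged-helix DNA-binding domain, and a letter in the gene name gives the subfamily. All probes were taken whose gene name in the array files was Fox followed by a letter from a to s, a number and at most a closing a or b. This gave 36 genes of 17 subfamilies among 18354 gene names, with 1296 of 462572 named probes. The genes lay on both array designs, 19 on design 1 and 17 on design 2, with 8 to 55 probes each that spanned a median of 7.73 kb. Foxo3a is now named Foxo3 and Foxf1a is now Foxf1. Names that join a Fox gene with a neighbour, such as Mthfsd-Foxc2, fall outside this rule.

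Ring1B is the ubiquitin ligase of Polycomb repressive complex 1 (PRC1), which holds developmental genes silent in cells that do not use them. Many Fox genes are textbook Polycomb targets, and most are needed in a single tissue or for a short time in the embryo. Phc2, another subunit of PRC1, carries a SAM domain that links complexes into chains, and the study's title sets this polymerisation beside PRC1 clustering and silencing. The comparison asks how Ring1B occupancy differs in cells with an altered Phc2.

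Occupancy was measured by chromatin immunoprecipitation and hybridisation to promoter arrays of 2 colours, with Ring1B immunoprecipitate in Cy5 and input DNA in Cy3. Both groups were mouse embryonic fibroblasts of strain C57BL/6, taken at embryonic day 12.5 and used at passage 2. The control cells were wild type, and the others carried the point mutation Phc2 L307R on both alleles, which these arrays do not read. The 4 arrays were of 2 designs that hold different promoters, and each genotype was hybridised once to each design, so every gene has a single measurement in each group. The spread between cultures is therefore unknown, and sizes are compared without p-values. The wild-type and Phc2 L307R arrays were scanned on different days, so scan day and genotype cannot be told apart. An array cannot tell fewer cells with Ring1B at a promoter from less Ring1B in each cell.

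Levels are log2 ratios of immunoprecipitate over input with the median of each array at 0. For each gene, the level is the mean of 3 adjacent probes spanning at most 2000 bp, chosen where both genotypes averaged highest, and the SD printed is over these probes. A mean of 1 or more counts as bound. The calls lower and higher, for Phc2 L307R against wild type, were made where a gene was bound in either genotype and its window differed by at least 1 (2-fold), with all 3 probes on the same side. Over all 17649 promoters, 45.5% were bound in wild type and 39.3% in Phc2 L307R. Immunoprecipitate signal was well above background at 97.9% to 99.7% of probes, and input signal at 85.7% to 86.7% of probes in wild type but 75.0% to 76.3% in Phc2 L307R. The deposited value tables match the scanner ratios for Phc2 L307R (correlation 0.999) but hold other wild-type values, with correlations of 0.854 and 0.890. Values below are scanner values unless the tables are named. Table windows were chosen from the table values, unless the same probes or the scanner window are named.

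Sequences were not read at the probe positions. Instead, the bases before the annotated start were taken from RefSeq (build GRCm38.p6), where 22 of 36 Fox genes had an entry. The 4 promoters below are shown because they pair fewer and more CG pairs with low and high Ring1B. They were chosen after the values were seen. Each is the 250 bases before the start, 5′ to 3′ on the gene's strand, with CG in capitals. For the probe positions the genome build is not stated in the labels or file headers, so the place of each window relative to these bases is unknown.

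Foxl2 (chr9:98955357-98955606, plus strand): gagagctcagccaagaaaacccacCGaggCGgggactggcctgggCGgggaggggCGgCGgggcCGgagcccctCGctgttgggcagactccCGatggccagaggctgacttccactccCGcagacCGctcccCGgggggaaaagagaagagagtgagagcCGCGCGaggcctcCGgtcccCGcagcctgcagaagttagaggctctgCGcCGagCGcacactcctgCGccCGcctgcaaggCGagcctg
Foxb2 (chr19:16873831-16874080, minus strand): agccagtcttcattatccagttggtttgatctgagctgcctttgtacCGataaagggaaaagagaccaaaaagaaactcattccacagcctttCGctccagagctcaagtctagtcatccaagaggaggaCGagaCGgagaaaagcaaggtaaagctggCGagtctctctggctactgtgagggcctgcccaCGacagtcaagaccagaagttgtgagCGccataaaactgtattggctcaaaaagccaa
Foxj2 (chr6:122819934-122820183, plus strand): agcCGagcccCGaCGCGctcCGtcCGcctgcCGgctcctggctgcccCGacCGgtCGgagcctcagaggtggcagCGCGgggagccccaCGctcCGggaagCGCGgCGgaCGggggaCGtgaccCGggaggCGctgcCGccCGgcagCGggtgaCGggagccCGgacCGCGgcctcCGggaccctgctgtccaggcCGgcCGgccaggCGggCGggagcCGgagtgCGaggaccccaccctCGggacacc
Foxn1 (chr11:78386609-78386858, minus strand): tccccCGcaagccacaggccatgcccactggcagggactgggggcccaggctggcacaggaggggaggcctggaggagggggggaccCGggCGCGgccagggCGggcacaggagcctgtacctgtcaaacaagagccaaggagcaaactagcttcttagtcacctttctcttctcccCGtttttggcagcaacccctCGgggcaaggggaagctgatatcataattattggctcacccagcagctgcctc

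The Foxl2 sequence holds 22 CG pairs, the Foxb2 sequence 7, the Foxj2 sequence 36 and the Foxn1 sequence 7, against a median of 6 over 32851 promoters in the same table. Foxl2 and Foxb2 stood among the highest Ring1B levels of the family in wild type, at 5.96 and 5.08. Foxj2 stood at 1.36 with the most CG pairs of these 4, and Foxn1 at 0.08 with as many as Foxb2. CpG content was not compared over the family, because 61.1% of its genes had an entry and 80% were required. The letters TGTTTAC, a core recognised by forkhead proteins, were searched on both strands. They occur in 3.17% of all promoters of this length and in none of the 4 shown.

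Ring1B levels in wild type ran from -0.46 at Foxh1 to 5.96 at Foxl2, with a median of 2.31 against 0.90 over all promoters. Of the 36 genes, 27 were bound in wild type (75.0%) and 25 in Phc2 L307R (69.4%), against 45.5% and 39.3% of all promoters. At a level of at least 3 there were 11 Fox genes (30.6%), against 1.58% of all promoters, which were not matched for probe number. T-box genes had 4 of 13 at that level, Sox genes 6 of 16 and Pax genes 8 of 9. Promoters of 10 genes that mark fibroblasts, among them Col1a1, Fn1 and Vim, ranged from 0.98 to 2.95 in wild type. A Fox level between 1 and 3 is therefore also seen at promoters of genes that fibroblasts use. Promoters of 5 genes that mark blood, endothelial and epithelial cells lay between -0.44 and 0.40. Occupancy does not show expression, so the label of the cells was not tested by these levels.

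**Figure D1:**
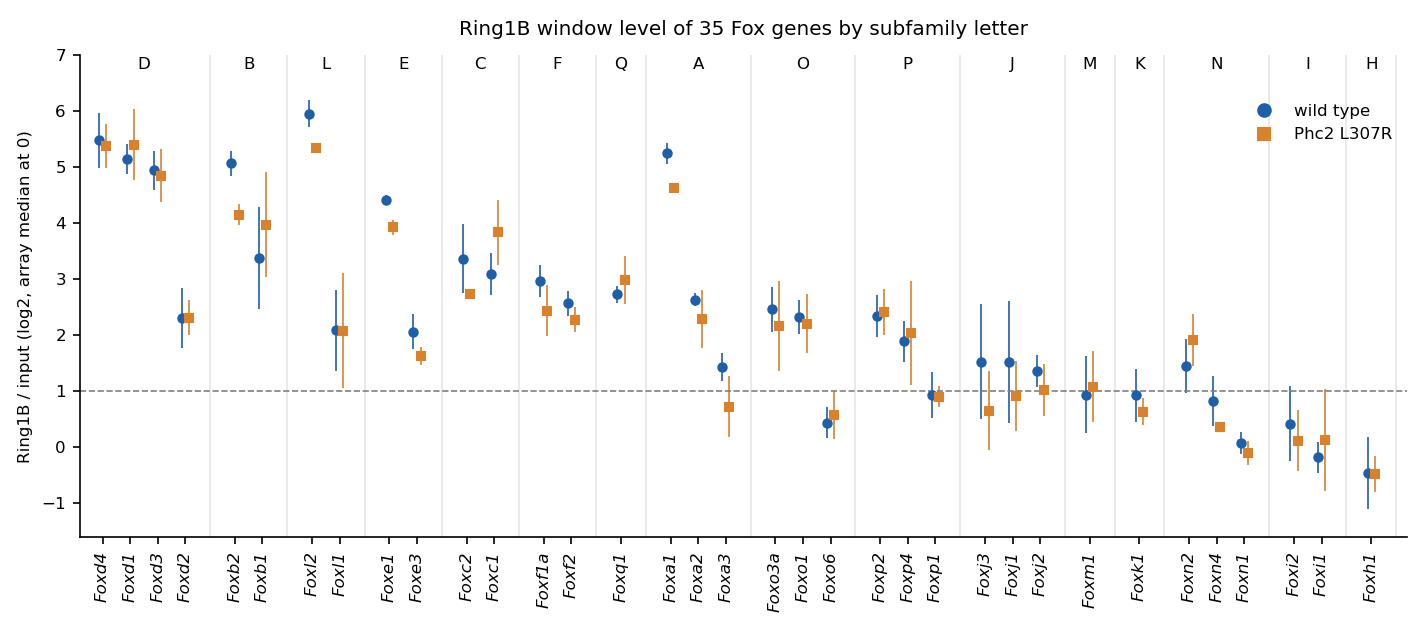
Window level of 35 of the 36 Fox genes (log2 Ring1B over input, array median at 0), grouped by subfamily letter and ordered by the subfamily median in wild type; circles are wild type, squares Phc2 L307R, bars the SD over the 3 probes of the window and the dashed line the bound cut-off of 1. Levels run from 5.96 at Foxl2 to -0.46 at Foxh1, and circles and squares lie within 1 of each other at every gene shown.

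The highest levels belonged to genes of gut, kidney, thyroid and ovary development among others. Foxl2, which maintains the identity of ovarian granulosa cells, had 5.96 (SD 0.23) in wild type and 5.35 (SD 0.05) in Phc2 L307R, on chromosome 9 (98767048 to 98767405). Foxd4 had 5.48 (SD 0.49) and 5.38 (SD 0.40). Foxa1, a pioneer factor that opens chromatin in endoderm, had 5.25 (SD 0.19) and 4.62 (SD 0.08), on chromosome 12 (58462605 to 58463000). Differences at these 3 genes were below 0 and did not reach the 2-fold rule. Foxd1, a marker of kidney stroma, had 5.15 (SD 0.26) and 5.40 (SD 0.63), and Foxb2 had 5.08 (SD 0.22) and 4.15 (SD 0.19). Foxd3, which keeps neural crest progenitors, had 4.95 (SD 0.35) and 4.85 (SD 0.47). Foxe1, a thyroid factor, had 4.42 (SD 0.09) and 3.93 (SD 0.14). These 7 genes all ranked among the 100 highest promoters of 17649, with Foxl2 at rank 4 and Foxe1 at rank 90.

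Within some subfamilies the members lay far apart. In FoxD, Foxd2 stood at 2.31 in both genotypes (SD 0.53 in wild type and 0.31 in Phc2 L307R), while the other 3 genes lay at 4.95 or above in wild type. In FoxL, Foxl1, a gene of gut mesenchyme, stood at 2.09 (SD 0.72) and 2.08 (SD 1.03), far below Foxl2. In FoxA, the endoderm subfamily, Foxa1 was followed by Foxa2, needed for notochord and floor plate, at 2.64 (SD 0.12) and 2.30 (SD 0.51). Foxa3, the hepatic member, stood at 1.43 (SD 0.25) and 0.73 (SD 0.54), below the cut-off in Phc2 L307R. In FoxE, Foxe3, a lens factor, had 2.07 (SD 0.32) and 1.63 (SD 0.16) beside the higher Foxe1. The 2 FoxB genes had wild-type levels of 5.08 and 3.38. Members lay close together in FoxC (3.37 and 3.09), FoxF (2.97 and 2.57) and FoxJ (1.36 to 1.53), and both FoxI genes were unbound. In FoxJ the probe SD was 1.09 at Foxj1 and 1.03 at Foxj3. After normexp background correction Foxj1 stood at 0.09, below the cut-off, with Foxj3 at 1.06 and Foxj2 at 1.31.

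FoxO genes encode effectors of insulin signalling that are expressed widely. Foxo3a had 2.46 (SD 0.40) in wild type and 2.16 (SD 0.80) in Phc2 L307R, and Foxo1 had 2.32 (SD 0.30) and 2.21 (SD 0.52). Foxo6, a gene mostly used in brain, had 0.44 (SD 0.28) and 0.58 (SD 0.43). Foxo3a and Foxo1 thus lay within the range of the fibroblast marker promoters, and Foxo6 was bound in neither genotype. Of the FoxP genes, Foxp2, known for its part in speech and song circuits, had 2.35 (SD 0.37) and 2.42 (SD 0.41). Foxp4 had 1.90 (SD 0.37) and 2.04 (SD 0.93), and Foxp1, which acts in many tissues, had 0.93 (SD 0.42) and 0.90 (SD 0.19). The largest difference in either subfamily was -0.30, at Foxo3a, and its SD over the probes was 0.47.

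A list of Fox genes that are expressed in most tissues (Foxj2, Foxj3, Foxk1, Foxm1, Foxn2, Foxo1, Foxo3a, Foxp1 and Foxp4) had a wild-type median of 1.45, and 6 of 9 were bound. The other 27 genes had a median of 2.64, and 21 were bound. All 11 genes at or above 3 came from these 27, as did the 5 lowest genes. Those 5 were Foxo6, Foxi2 at 0.42 (SD 0.67), Foxn1 at 0.08 (SD 0.20), Foxi1 at -0.18 (SD 0.27) and Foxh1 at -0.46 (SD 0.64). In Phc2 L307R Foxi2 stood at 0.12, Foxn1 at -0.10, Foxi1 at 0.13 and Foxh1 at -0.48. Foxn1 directs thymus and hair epithelium, Foxi1 acts in inner ear and kidney, and Foxh1 carries Nodal signals in the early embryo, so tissue-restricted genes lay at both ends of the range. Only 8 probes carry the name Foxh1, over 1.53 kb. The promoter that Foxh1 shares with Ppp1r16a, with 9 probes, was also unbound, at 0.17 (SD 0.15) in wild type and 0.50 (SD 0.12) in Phc2 L307R. A higher level outside these probes would not be seen.

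By the 2-fold rule, of 28 Fox genes bound in either genotype 0 had a lower and 0 a higher level in Phc2 L307R, against 3.02% and 1.64% of the 8998 bound promoters. At these rates 28 promoters would give 0.846 lower and 0.461 higher, so counts of 0 lie close to the background. Among promoters at or above 3 in wild type, 21.1% were lower, against 0 of 11 Fox genes. Of these 11 genes, 8 lay on design 2, where 2.08% of bound promoters were lower, against 3.94% on design 1. Their median wild-type level was 4.95, against 3.86 over all promoters at or above 3. Neither design nor level was matched in this comparison. The median difference was -0.15 over all 36 genes, -0.20 over the 28 bound genes and -0.10 over the 11 genes at or above 3. The corresponding medians over all promoters were -0.05, -0.14 and -0.48. Differences below 0 were seen at 18 of the 28 bound genes (64.3%), against 61.9% of bound promoters. At 16 of the 28 the difference was smaller than its own SD over the probes. The count of 0 lower genes depended on the source of the wild-type values. Among value-table windows, 13 genes were lower (8.25% of bound promoters) and 0 higher (0.585%). Of all promoters at or above 3 on the scanner in wild type, 236 of 279 were lower in the tables, against 7 of 11 Fox genes. With arrays scaled to the same spread 3 were lower (4.68% of bound promoters), and after normexp background correction 1 was (4.54%). In 13 of 36 windows all 3 probes had input well above background on both arrays, and the part of dim input in these differences was not tested.

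**Figure D2:**
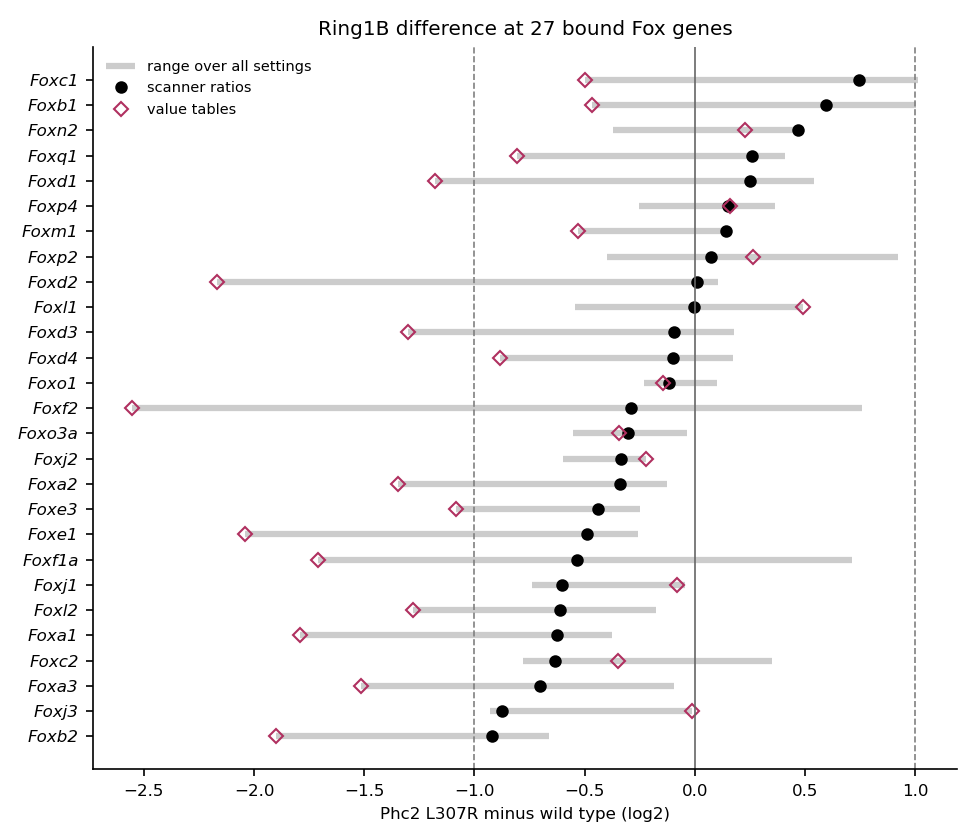
Difference in window level, Phc2 L307R minus wild type (log2), for 27 of the 28 Fox genes bound in either genotype; filled circles are scanner ratios, open diamonds the value tables, grey bars the range over all settings tried, and dashed lines mark a 2-fold difference. Circles run from -0.92 at Foxb2 to 0.74 at Foxc1, inside the dashed lines, while 12 diamonds meet the rule for lower.

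The lowest differences among bound genes were at Foxb2 (-0.92, SD 0.40), Foxj3 (-0.88, SD 1.62), Foxa3 (-0.70, SD 0.42), Foxc2 (-0.63, SD 0.70) and Foxa1 (-0.63, SD 0.19). At Foxb2, a gene of the early diencephalon and hindbrain, Foxa1 and Foxa3 the difference exceeded its probe SD. At these 3 genes it was below 0 under all settings, which was not counted over all promoters. These genes met the rule in the value tables, at -1.90, -1.79 and -1.52. So did 236 of 279 promoters at or above 3 in wild type, a level that Foxa3 does not reach. The tables hold the same Phc2 L307R values, so they give no separate support. Foxc2 turned to 0.35 over probes well above background and to 0.09 after normexp, and only 1 of its 3 window probes had input well above background on each array. Foxj3, a broadly expressed gene, went from 1.53 (SD 1.03) to 0.65 (SD 0.70), but in the value tables its difference was -0.01. Foxj1, the master gene of motile cilia, also moved little in the tables: it went from 1.52 (SD 1.09) to 0.92 (SD 0.62), a difference of -0.60 against -0.08. Along with Foxa3, these were the 3 genes bound in wild type only. The promoter that Foxj3 shares with AA415398 was bound in both genotypes, at 2.52 (SD 1.37) in wild type and 2.35 (SD 1.19) in Phc2 L307R. In the Foxj3 window 1 probe has a substituted signal, because a channel was not above background. Foxm1, a cell-cycle factor, reached the cut-off in its window in Phc2 L307R only, at 1.08 against 0.94. In the value tables it had 1.29 in wild type and 0.76 in Phc2 L307R, and after normexp its difference was -0.32. Its longest run of 3-probe means at or above 1 spanned 0.83 kb in wild type and 0.32 kb in Phc2 L307R. Other windows of the gene thus reached the cut-off in wild type.

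Among the highest differences were those at Foxc1 (0.74, SD 0.61), Foxb1 (0.59, SD 0.12), Foxn2 (0.47, SD 0.26) and Foxq1 (0.26, SD 0.34). Foxc1 is a factor of neural crest and eye mesenchyme, and Foxb1 one of the hypothalamus and spinal cord. Foxc1 reached the rule for higher after loess (1.01) but stood at -0.14 with windows of 5 probes, and Foxb1 with windows of 5 probes (1.01). In the value tables both lay below 0, at -0.50 and -0.47, as did Foxq1 at -0.80. Foxn2 kept its sign there, at 0.23, but was -0.37 after normexp.

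The value tables allowed the 2 sets of wild-type values to be set against each other on the same probes. The tables exceeded the scanner values at 25 of 36 Fox genes, against 47.8% of all promoters. The median gap was 0.40 over the 36 genes and 1.09 over the 11 genes at or above 3, beside -0.02 over all promoters and 1.14 over all promoters at or above 3. The largest excess was at Foxd2, 2.18, where the wild-type level was 2.31 on the scanner and 4.48 in the table, and 1 probe of this window has a substituted signal because a channel was not above background. At 26 of 36 genes the gap between both wild-type values was larger than the scanner difference between genotypes, against 42.5% of all promoters. The gap was small at Foxo3a (0.05), Foxo1 (0.03) and Foxp4 (-0.01), while Foxj3 and Foxj2 had gaps of -0.65 and -0.61. The Phc2 L307R arrays are the same in both comparisons.

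Ring1B covered long stretches at the highest Fox genes. A bound stretch was the longest run of successive probes whose running mean over 3 probes was at least 1. In wild type 28 of 36 Fox genes had such a stretch, against 47.4% of all promoters, and at 12 of 36 (33.3%) it reached 5 kb, against 1.12%. Promoters were not matched for probe number or span, and one that spans less than 5 kb cannot reach that length. At 8 Fox genes the stretch filled the whole span of the probes, so its true length is not bounded. Among them were Foxb1 with 8.51 kb, Foxc1 with 8.06 kb, Foxb2 with 7.98 kb, Foxa1 with 7.84 kb, Foxf1a with 7.76 kb, Foxd3 with 7.67 kb and Foxc2, which has only 14 probes, with 2.24 kb. At Foxb2 all 44 probes were at or above 1. The FoxO stretches were shorter, 2.43 kb at Foxo1 and 1.80 kb at Foxo3a, while Foxp2 had 4.83 kb. Over probes well above background only, Foxo1 kept 2.43 kb in wild type, but Foxo3a had 4.62 kb beside 4.87 kb at Foxp2.

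**Figure D3:**
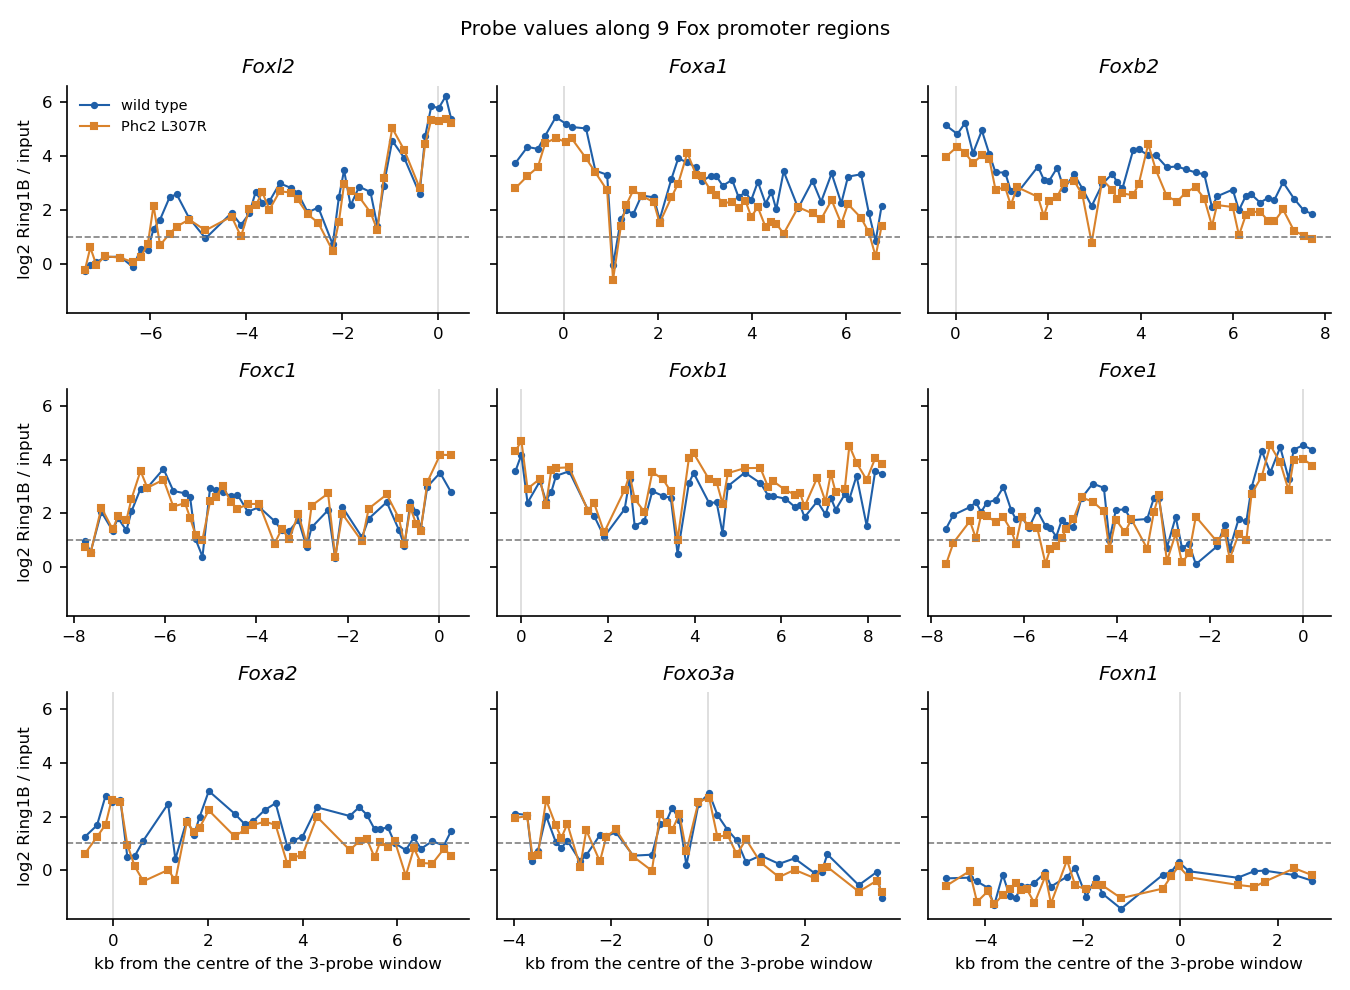
Probe values (log2 Ring1B over input) along 9 Fox promoter regions, picked after the values were seen, against the distance in kb from the centre of the 3-probe window; circles are wild type, squares Phc2 L307R, the dashed line is the cut-off of 1. Foxa1, Foxb2 and Foxb1 stay above the cut-off over nearly all their probes, Foxo3a falls below it on one side, and Foxn1 lies below it throughout.

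In Phc2 L307R 25 of 36 Fox genes had a bound stretch, against 41.5% of all promoters, and 10 reached 5 kb, against 0.878%. The stretch was at least 1.5 times shorter at 11 of 28 genes (39.3%), against 42.2% of all promoters with a stretch in wild type, so the share was near the background. Of the 12 genes with at least 5 kb, 4 were shorter by this measure, against 25.4% of such promoters. Among these, Foxa2 went from 5.77 to 2.17 kb, Foxe1 from 5.28 to 2.62 kb and Foxf1a from 7.76 to 4.89 kb. At a cut-off of 1.5 Foxf1a had 2.63 kb in wild type and 2.96 kb in Phc2 L307R. At Foxb1, Foxb2, Foxc1 and Foxc2 the stretch filled the whole span of the probes in both genotypes, so a difference in length could not be seen. After normexp Foxb1 had 3.03 kb in wild type and 8.51 kb in Phc2 L307R, and Foxc1 had 1.80 and 5.50 kb. A stretch at least 1.5 times longer in Phc2 L307R was seen at 0 of 25 genes, against 19.5% of all promoters with a stretch in Phc2 L307R. A cut-off of 1.5 gave 3 such genes and normexp 5. These counts stand without a share over all promoters, so they cannot be told from the background.

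**Figure D4:**
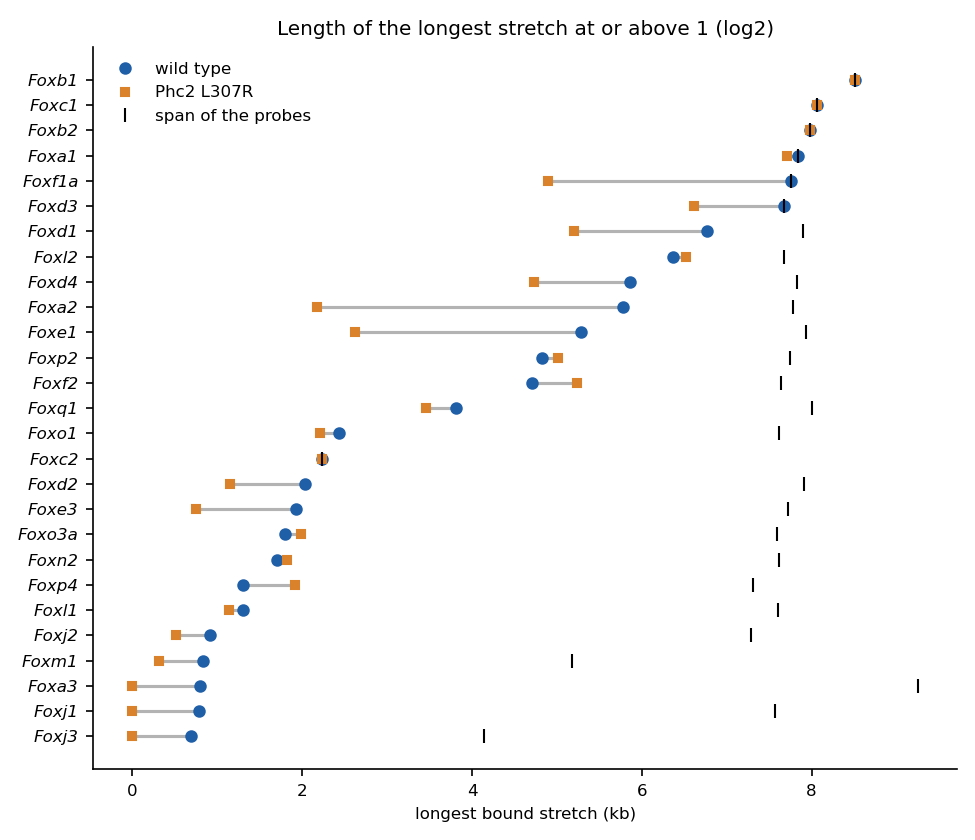
Longest bound stretch in kb at 27 of the 28 Fox genes that have one; circles are wild type, squares Phc2 L307R, grey lines join both values and black ticks give the span of the probes. Foxa2, Foxe1 and Foxf1a show the longest grey lines, and 7 circles lie on their tick.

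Away from the chosen window, the other probes at or above 1 in either genotype were averaged for 25 Fox genes with at least 3 such probes. The median difference there was -0.19, against -0.12 in the windows of the same genes, and 18 of 25 lay below 0, against 57.3% of all promoters with such probes. After loess 13 of 24 lay below 0, with a median of -0.08. For the 11 genes at or above 3 it was -0.45 outside and -0.10 inside the window, while all promoters of that level had -0.40 outside and -0.48 inside. Gene by gene the order was nearly even. A lower value outside than in the window was seen at 13 of the 25 Fox genes and at 54.5% of those 11 genes. The shares were 48.2% over all promoters and 42.2% over all promoters at or above 3. Values outside lay below 0 at 72.7% of the 11 genes, against 84.8% of all promoters at or above 3. Foxd1 had 0.25 (SD 0.41) in the window and -0.51 (SD 0.41 over 32 probes) outside. With the window chosen anew it had -0.79 after normexp, -0.32 at equal spread and -1.18 in the value tables. On the probes of the scanner window the tables gave -0.84. Foxd3 had -0.10 and -0.45 (SD 0.67 over 38 probes), and Foxd4 -0.10 and -0.56 (SD 0.36 over 18 probes). Foxb2 had -0.92 and -0.68 (SD 0.47 over 41 probes). Neighbouring probes share the same DNA fragments and are not replicates.

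Direction along a whole region was the clearest at a few genes. Of the 1296 Fox probes 63.9% had a difference below 0, against 55.2% of all named probes. At Foxb2 40 of 44 probes had a difference below 0, at Foxa1 39 of 44, at Foxa2 32 of 36 and at Foxd4 28 of 31. Foxb1 ran the other way, with 41 of 43 probes above 0 and a mean difference of 0.56 over all its probes, against means of -0.70 at Foxb2, -0.61 at Foxa2 and -0.59 at Foxa1. In the tables, by contrast, 39 of 43 Foxb1 probes were below 0, whereas Foxb2 and Foxa1 had 44 of 44 below 0 and Foxa2 35 of 36. After loess and normexp Foxb1 had 1 and 4 probes below 0.

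A pair of loci hold 3 Fox genes each. On chromosome 13 the windows of Foxq1 and Foxf2 lay 67.7 kb apart and those of Foxf2 and Foxc1 182 kb apart. Foxq1, a gene of hair and stomach epithelium, had 2.73 (SD 0.16) in wild type and 2.99 (SD 0.43) in Phc2 L307R. Foxf2, a gene of gut and palate mesenchyme, had 2.57 (SD 0.22) and 2.28 (SD 0.23), and Foxc1 had 3.09 (SD 0.37) and 3.84 (SD 0.58). The wild-type levels of Foxq1 and Foxf2 differed by less than the probe SD of Foxf2. Scanner differences of 0.26, -0.29 and 0.74 did not pass the rule. In the value tables the differences were -0.80, -2.55 and -0.50, and only Foxf2 met the rule for lower, with -1.08 on the probes of the scanner window.

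On chromosome 8 the windows of Foxf1a and Foxc2 lay 38.2 kb apart and those of Foxc2 and Foxl1 6.91 kb apart. Foxf1a, which is needed in lung and gut mesenchyme, had 2.97 (SD 0.28) in wild type and 2.44 (SD 0.46) in Phc2 L307R. Foxc2, a gene of lymphatic vessels and paraxial mesoderm, had 3.37 (SD 0.62) and 2.73 (SD 0.09), and the promoter it shares with Mthfsd had 2.79 (SD 0.19) and 3.02 (SD 0.17). Foxl1 was the lowest of the locus in both genotypes. Differences at this locus were -0.53 (SD 0.51) at Foxf1a, -0.63 (SD 0.70) at Foxc2 and -0.005 (SD 1.18) at Foxl1, and none passed the rule. The Foxl1 window probes went in both directions, and 1 of them has a substituted signal because a channel was not above background. At Foxf1a the window highest in Phc2 L307R gave 0.71. In the value tables Foxf1a met the rule for lower at -1.71, while Foxc2 had -0.35 and Foxl1 0.49. Foxd2 and Foxe3 also neighbour each other on chromosome 4, with windows 18.4 kb apart and close wild-type scanner levels of 2.31 and 2.07. In the value tables these levels were 4.48 and 2.71, and after normexp 1.06 and 1.61.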

How the data were processed

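Ring1B ChIP-on-chip was analysed on 4 arrays (2 genotypes, 2 array designs). Per the file headers, Agilent Feature Extraction 10.7.3.1 made the deposited intensity values and the log10 ratio of Cy5 over Cy3 at each spot, after background subtraction, detrending and a linear dye normalization. Comparison with these ratios shows that the deposited value tables hold log10 values as well. How their wild-type columns were made is unknown.

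Ratios were converted to log2. Control spots were removed together with any spot carrying an outlier flag, and each array was centred on its median. Windows, calls and bound stretches were computed for all promoters. Fixed rules of size replace tests, because each promoter has 1 array per genotype and so few arrays limit the precision. The steps were tested on simulated data. Fox genes, lists and rules were chosen with earlier results of these data known. Full values went to the 8 highest and 5 lowest Fox genes in wild type, the 5 lowest and 5 highest differences among bound genes, both Fox loci and the FoxA, FoxD, FoxO and FoxP genes. A gene among these enters the counts and medians but is not reported here singly. Alternatives were normexp (offset 50), loess, equal spread of arrays, the deposited tables, probes well above background, other windows, the mean over all probes, a cut-off of 1.5, a 1.5-fold rule and single designs. Normexp, loess, equal spread and the filter on dim probes for stretches, and all settings outside the window, were chosen after seeing the data. Python 3.11.15 (numpy 2.4.6, pandas 2.3.3, matplotlib 3.10.9) and R 4.3.3 (limma 3.58.1) were used.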

Additional observations from a re-analysis of the deposited data

How the results depend on the processing

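No paired analysis was possible because the title numbers stand for different array designs with no probe in common, which leaves a single pair of arrays for any promoter. The count of lower Fox genes was 0 from the scanner ratios, 1 after normexp (Foxb2), 3 with arrays at the same spread (Foxa1, Foxb2 and Foxl2), 5 under a 1.5-fold rule (13.5% of bound promoters) and 13 in the value tables. The count of higher genes was 0, and 1 after loess (Foxc1; 1.61% of bound promoters), 1 with windows of 5 probes (Foxb1; 0.675%) and 2 under the 1.5-fold rule (6.38%). Median levels in wild type and Phc2 L307R were 1.61 and 1.26 after normexp, which left 26 and 20 genes bound. The medians were 1.71 and 1.54 over probes well above background and 1.88 and 1.79 with windows of 5 probes. As the mean over all probes they were 0.92 and 0.85, which left 17 and 16 genes bound. With the window highest in Phc2 L307R the wild-type median was 1.83. Array design 1 alone gave 13 and 12 bound genes and a Phc2 L307R median of 1.63, and design 2 alone gave 14 and 13 bound genes with medians of 2.73 and 2.99. These counts of bound genes stand without a share over all promoters in the same setting. The median difference outside the window was -0.19 from the scanner ratios, -0.08 after loess, -0.38 at equal spread and -1.07 in the value tables. Median bound stretches were 1.98 kb in wild type and 1.95 kb in Phc2 L307R. After normexp they were 1.01 and 0.716 kb, with 5 genes at least 1.5 times longer in Phc2 L307R. A cut-off of 1.5 gave 1.13 kb in Phc2 L307R, with 3 longer by this measure. Neither count has a share over all promoters beside it. The causes were not tested, apart from the single designs, which hold fewer genes. Among single genes, 224 of 324 wild-type levels and 232 of 324 differences (single designs left out, since they cannot move a gene) moved by no more than the SD of that gene over its probes. Differences at Foxa1, Foxa2, Foxa3, Foxb2, Foxe1, Foxe3, Foxj1, Foxj2, Foxj3, Foxl2, Foxn1, Foxo3a and Foxp1 were below 0 in every setting run. The share of all promoters below 0 in every setting was not computed, so this list cannot be told from the background. By the scanner ratios Foxn1 and Foxp1 were bound in neither genotype, and the value nearest to 0 at Foxj3 was -0.01.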
